A study of Macaca mulatta with 80 samples.

Results

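The subiculum (Sub) of adult rhesus monkeys was compared with the entorhinal cortex (EC) of adult rhesus monkeys across genes. The comparison used 8 of the 80 arrays of the study, 4 of adult Sub and 4 of adult EC, joined into 4 pairs by the number in their titles, and every difference below is Sub minus EC. All 19775 genes with a probe set of their own were tested, each through the probe set with the highest mean over the 80 arrays. The study took 5 regions of the hippocampal formation from 16 male rhesus monkeys (Macaca mulatta), 4 at each of 4 ages (1 day, 6 months, 1 year and 6 to 12 years), and read each region of each animal on its own array. All animals were killed with an overdose of sodium pentobarbital, and none of the groups used here carried another treatment or an allele named in the labels. Both regions were microdissected through all their layers from frozen sections, Sub at the body of the hippocampus and EC in its intermediate division, so an array reads a mixture of neurons, glia and vessels. The array was designed for human transcripts, and macaque sequence that differs from a probe can lower its signal in both regions.

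The entorhinal cortex is the main cortical gateway to the hippocampus. Neurons of its superficial layers send the perforant path to the dentate gyrus, the CA fields and the subiculum, and its deep layers receive the return from the hippocampus. The subiculum is the main output of the hippocampus: its pyramidal neurons receive CA1 and project to the entorhinal cortex and to many subcortical targets.

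Values are log2 signals after quantile normalization of the 80 arrays, in which the median gene lay at 5.98. The array carries GAPDH control probe sets near each end of the transcript, and a larger log2 ratio of the 3' to the 5' signal goes with shorter labelled RNA. That ratio was 1.24, 1.27, 1.18 and 2.72 in adult Sub arrays 1 to 4 and 1.35, 1.50, 1.31 and 1.62 in EC arrays 1 to 4. Sub array 4 stood apart, and its actin ratio was also the highest of the 8 arrays (4.55 against 3.25 to 4.03), so results are given with pair 4 and without it. Sub array 4 also held more signal from TTR, the transthyretin gene that marks choroid plexus (8.03 against 6.00 to 6.22 in the other Sub arrays). The mean over the 16 measured choroid plexus markers, TTR included, was 5.65 in Sub array 4 and 5.54 to 5.55 in the other Sub arrays. The high TTR value enters this mean, which therefore does not show a rise of the other markers in Sub array 4. In EC it was 5.50 to 5.65.

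The largest differences between adult Sub and EC included genes of neuronal identity and of myelin. HAPLN4, NTS, FEZF2, HTR2C, NEFH and PVALB were higher in Sub, together with the myelin gene CLDN11, and SLC17A6, ARPP21, CUX2 and MEF2C were higher in EC. In limma, with Benjamini-Hochberg adjustment over all genes at 0.05, 624 of 19775 genes were called (3.16%), of which 257 were higher (1.3%) and 367 lower (1.86%) in Sub. Without pair 4 the same test called 813 genes (4.11%), 336 higher (1.7%) and 477 lower (2.41%), and 557 of them were among the 624. The count fell to 154 without pair 1, 149 without pair 2 and 307 without pair 3. The levels of Sub and EC did not overlap for 2061 genes (10.4%). The share of calls that were higher in Sub was 41.2%, but 24.8% with the values as deposited and 21.4% with each array centred on its median. Because both samples are bulk tissue, fewer cells of a type and less RNA per cell cannot be told apart in any result below.

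**Figure D1:**
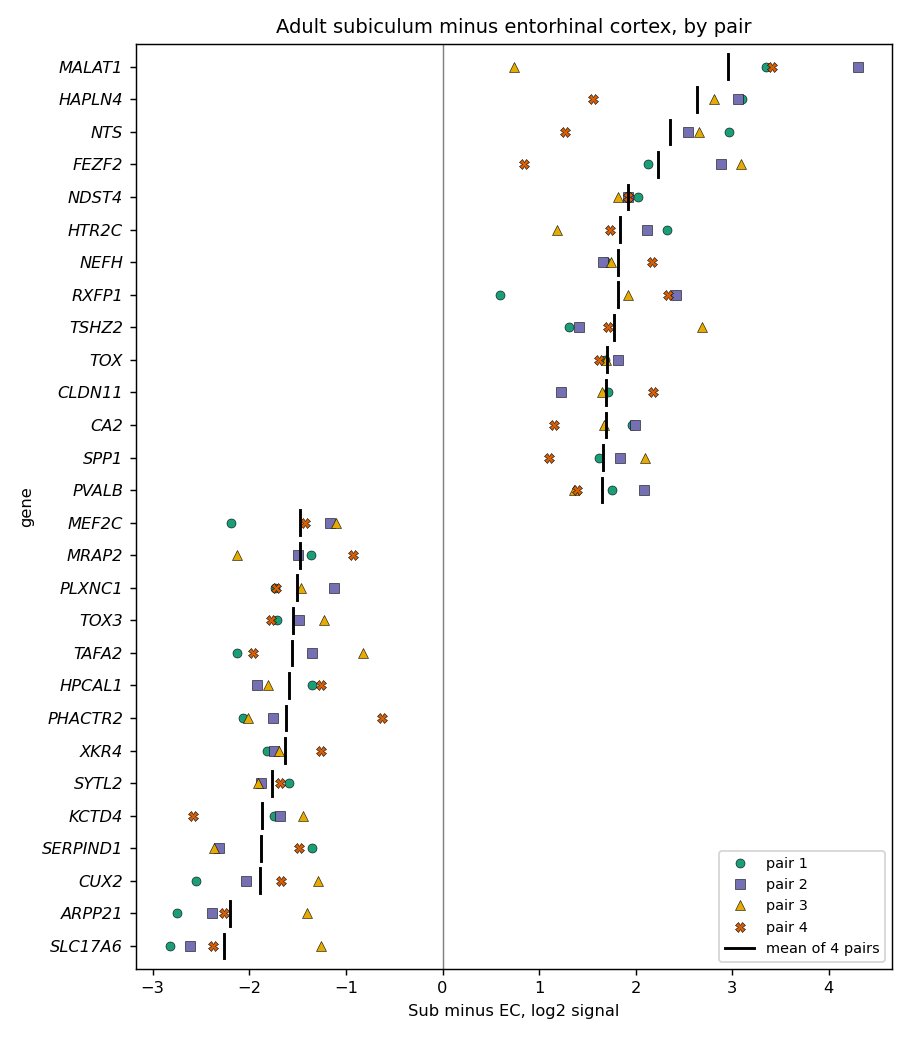
Sub minus EC difference in log2 signal (x axis) for the 14 genes with the largest called differences in each direction (y axis). Symbols are the 4 adult pairs and the black bar is their mean. All 4 pairs lie on the same side of 0 for every gene, and pair 4 (cross) lies nearest to 0 for HAPLN4, NTS, FEZF2 and PHACTR2, among others.

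The 14 genes with the largest differences in favour of Sub lay between 1.65 and 2.95, and the 14 in favour of EC between 1.47 and 2.27 in size. These 28 genes were chosen by size among called genes, so their sizes are a description of the top of the list. Sub and EC levels did not overlap for any of the 28, and all 28 were also called without pair 4.

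HAPLN4, PVALB and NEFH were among the 14 genes of the Sub group. HAPLN4, a link protein that fixes hyaluronan to proteoglycans in the nets around fast-spiking neurons, was at 10.03, 9.53, 8.83 and 8.49 in Sub arrays 1 to 4 and at 6.93, 6.47, 6.01 and 6.94 in EC. The lowest Sub array, number 4, was still above every EC array. The difference was 2.63 (SE 0.226, n = 4 pairs, adjusted p = 0.000597), which is 6.2-fold, and 2.99 without pair 4. Of 27 measured genes of the matrix and perineuronal nets HAPLN4 alone was higher and SPARC (-0.72) and TNC (-0.48) were lower, with a median difference of 0.00, and those 2 calls were each lost without pair 1 (adjusted p = 0.129 and 0.235). PVALB codes for parvalbumin, the calcium-binding protein of fast-spiking interneurons. It was at 7.93, 8.27, 7.80 and 7.61 in Sub and at 6.17, 6.19, 6.45 and 6.21 in EC, with a difference of 1.65 (SE 0.137, adjusted p = 0.000597). NEFH, the heavy neurofilament chain of large axons, was at 9.67, 9.30, 9.66 and 10.31 in Sub and at 7.98, 7.64, 7.91 and 8.14 in EC. The groups stood well apart, and the difference was 1.82 (SE 0.119, adjusted p = 0.000207).

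Signalling genes formed another group. NTS, the precursor of the peptide neurotensin, was at 7.25, 7.04, 7.004 and 5.201 in Sub and at 4.28, 4.51, 4.35 and 3.93 in EC. EC was near the bottom of the array's range, which began at 3.42, and Sub array 4 lay well under the other Sub arrays. The difference was 2.36 (SE 0.230, adjusted p = 0.00101) and 2.72 without pair 4. HTR2C, the serotonin 2C receptor, was at 8.50, 8.56, 7.97 and 8.78 in Sub and at 6.18, 6.45, 6.78 and 7.05 in EC. All Sub arrays lay above all EC arrays, with a difference of 1.84 (SE 0.170, adjusted p = 0.000852). It was the only one of 14 measured serotonin receptor genes that was called, and 0 were lower (in limma 4 were higher and 0 lower at an unadjusted p under 0.05). RXFP1, the receptor for the peptide relaxin, was at 7.59 to 8.80 in Sub and 5.87 to 7.0003 in EC, with a difference of 1.81 (SE 0.254, adjusted p = 0.00627).

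The transcription factors FEZF2, TSHZ2 and TOX were higher in Sub, while other neuronal factors, CUX2, MEF2C and SOX5, were lower. FEZF2, which specifies cortical neurons that project below the cortex, was at 9.15, 9.07, 9.75 and 7.69 in Sub and at 7.02, 6.19, 6.66 and 6.85 in EC. Sub array 4 was again the lowest of its group. The difference was 2.24 (SE 0.300, adjusted p = 0.00512) and 2.70 without pair 4. TSHZ2, a zinc finger factor, was at 7.56, 7.62, 8.96 and 7.87 in Sub against 6.16 to 6.27 in EC, a difference of 1.78 (SE 0.201, adjusted p = 0.00198). TOX, a DNA-binding protein with an HMG box, differed by 1.70 (SE 0.101, adjusted p = 0.00014), from a narrow 7.03 to 7.31 in Sub to 5.35 to 5.69 in EC.

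The other 5 genes of the Sub group had varied roles. NDST4, an enzyme that sulfates heparan sulfate chains, had an even difference, with 2.03, 1.92, 1.82 and 1.92 in pairs 1 to 4, a mean of 1.92 (SE 0.101, adjusted p = 0.000107). Its 1 other probe set had the opposite sign. CLDN11, the claudin of myelin tight junctions, and CA2, the carbonic anhydrase of oligodendrocytes, each differed by 1.69 (adjusted p = 0.000597). SPP1, the secreted phosphoprotein osteopontin, differed by 1.66 (SE 0.153, adjusted p = 0.000852), and its 1 other probe set had the opposite sign. MALAT1, a long non-coding RNA kept in the nucleus, had the largest mean difference, 2.95 (SE 0.438, adjusted p = 0.00846). It was also the least even gene, since pair 3 differed by 0.74 and pair 2 by 4.30. It was lost without pair 1 (adjusted p = 0.078) and at the mean over its probe sets, where the difference was 0.38 (adjusted p = 0.111).

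**Figure D2:**
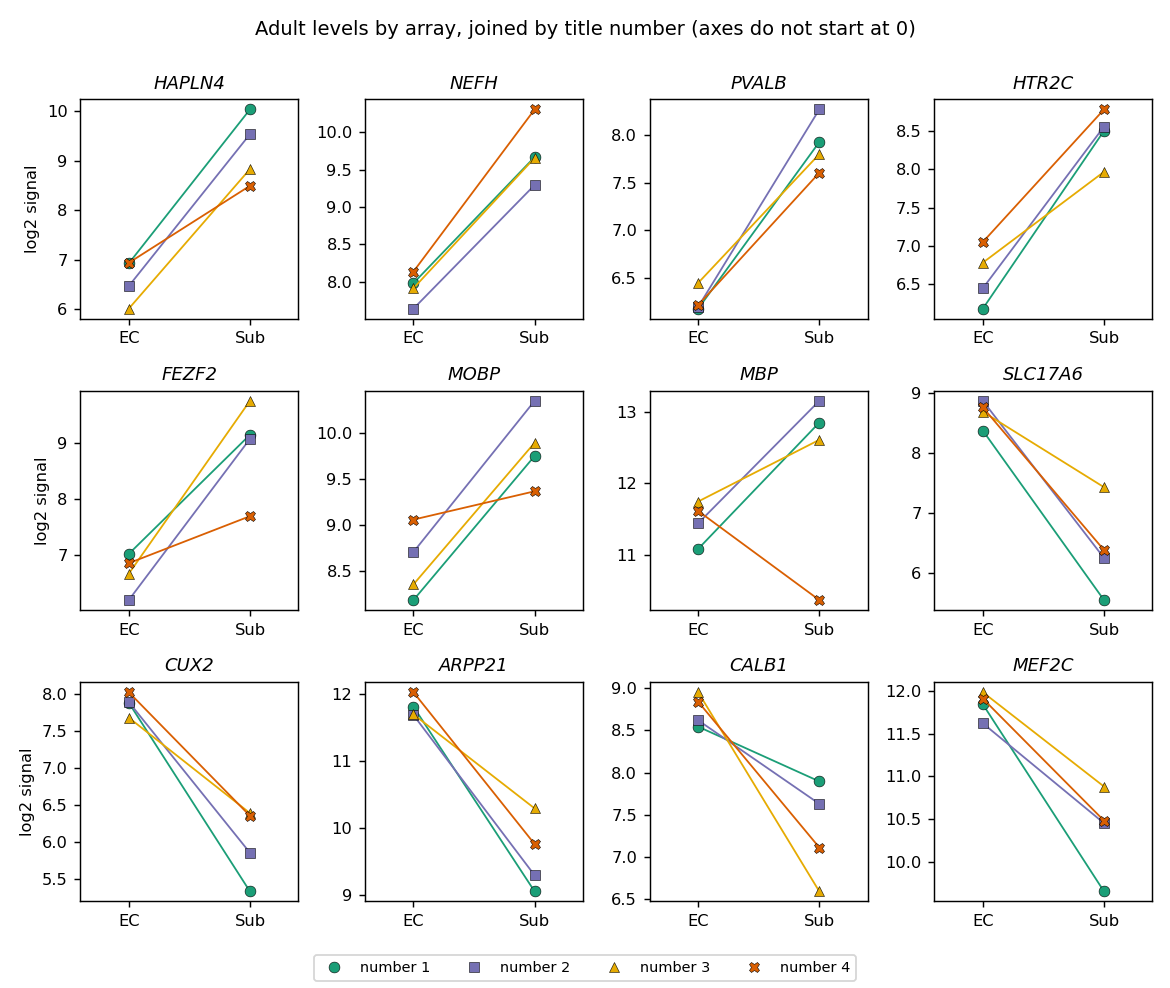
Log2 signal (y axis, not starting at 0) of 12 genes in adult EC and Sub, with a line joining the arrays of the same number. Lines run upward in all 4 pairs for the top row, FEZF2 and MOBP and downward for the last 5 genes, while MBP rises in pairs 1 to 3 and drops from 11.62 to 10.38 in pair 4.

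Among genes higher in EC, SLC17A6 and CUX2 mark sets of glutamatergic neurons. SLC17A6, the vesicular glutamate transporter VGLUT2, was at 5.55, 6.25, 7.43 and 6.39 in Sub and at 8.37, 8.87, 8.69 and 8.76 in EC. EC arrays were close together and all above the highest Sub array. The difference was -2.27 (SE 0.218, adjusted p = 0.000917), a 4.81-fold lower signal in Sub. CUX2, a homeobox factor of upper cortical layers, was at 5.33, 5.86, 6.39 and 6.36 in Sub and at 7.89, 7.90, 7.68 and 8.03 in EC. The difference was -1.89 (SE 0.179, adjusted p = 0.0009), and its 1 other probe set had the opposite sign.

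ARPP21, a cyclic AMP-regulated phosphoprotein of forebrain neurons, was abundant in both regions. It was at 9.06, 9.30, 10.29 and 9.76 in Sub and at 11.81, 11.68, 11.69 and 12.02 in EC, a difference of -2.20 (SE 0.187, adjusted p = 0.000597). Only 2 of its 5 other probe sets had the same sign. MEF2C, an activity-dependent transcription factor of excitatory neurons, was at 9.65, 10.45, 10.88 and 10.48 in Sub and at 11.84, 11.62, 11.99 and 11.91 in EC, a difference of -1.47 (SE 0.170, adjusted p = 0.0022). Both of its other probe sets had the same sign.

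The other 10 genes higher in EC differed by -1.88 to -1.48. SYTL2, a synaptotagmin-like protein of vesicle transport, was at 6.59, 7.06, 6.92 and 7.24 in Sub and at 8.18, 8.94, 8.82 and 8.92 in EC. Its difference of -1.76 (SE 0.107, adjusted p = 0.00014) had the smallest p of the EC group. PLXNC1, the receptor for semaphorin 7A, differed by -1.51 (adjusted p = 0.000597), but at the mean over its probe sets by -0.42 (adjusted p = 0.0559). HPCAL1, a neuronal calcium sensor, differed by -1.58, TOX3, an HMG box relative of TOX, by -1.55 (adjusted p = 0.000403), and TAFA2, a secreted chemokine-like protein, by -1.56. SERPIND1, which codes for heparin cofactor II, differed by -1.88, KCTD4 by -1.87, XKR4 by -1.63 and PHACTR2, a regulator of phosphatase and actin, by -1.62. MRAP2, an accessory protein of melanocortin receptors, differed by -1.48 (adjusted p = 0.00209).

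Myelin genes were the gene list with the largest share of members higher in Sub. Of 23 measured oligodendrocyte and myelin genes 14 were higher and 0 lower (18 and 0 at an unadjusted p under 0.05 in limma), and the median difference was 0.85 against 0.01 over all genes. The mean over the list was 7.73 to 7.83 in Sub and 6.70 to 7.08 in EC. Without pair 4, 17 were higher and the median difference was 0.99, and without pairs 1, 2 and 3 the counts were 8, 10 and 11. MAL, a lipid raft protein of myelin, was at 7.93, 8.04, 7.80 and 7.82 in Sub and at 6.42 to 6.47 in EC, a difference of 1.45 (SE 0.104, adjusted p = 0.000389). UGT8, which makes the galactolipid of myelin, differed by 1.41 (adjusted p = 0.00192), and MOG, a glycoprotein of the myelin surface, by 1.36 (adjusted p = 0.0054). ENPP2, the enzyme autotaxin, differed by 1.39 (adjusted p = 0.00209), with Sub array 4 at 12.16 against 10.71 to 10.75 in the other Sub arrays. ENPP2 is made by the choroid plexus too, and TTR was high in the same array. CNDP1 of the myelin list was also highest there, at 8.38 against 6.80 to 7.29 in the other Sub arrays. Whether choroid plexus tissue has a part in that ENPP2 value was not tested.

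MBP and MAG, both structural genes of myelin, were not called with all 4 pairs. MBP was at 12.85, 13.15, 12.61 and 10.38 in Sub and at 11.09, 11.45, 11.75 and 11.62 in EC. Sub array 4, the array with the high GAPDH ratio, was the lowest of all 8 arrays, and the others of Sub were the highest. The difference was 0.77 (SE 0.402, adjusted p = 0.377) with pair 4 and 1.44 (adjusted p = 0.000289) without it, and 3 of its 8 other probe sets had the sign of the 4-pair mean. MAG was at 8.53, 7.90, 7.73 and 6.79 in Sub and 6.96 to 7.11 in EC, with 0.69 (adjusted p = 0.171) and, without pair 4, 1.01 (adjusted p = 0.00319). ERMN and OPALIN, further oligodendrocyte genes, were likewise called only without pair 4, at 1.24 (adjusted p = 0.0026) and 0.74 (adjusted p = 0.00773), and FA2H only with it (adjusted p = 0.0482, and 0.074 without). In the fit of all 16 pairs with the difference in GAPDH ratio as a covariate all 5 were called in adults, with 1.04 for MBP (adjusted p = 0.00964), 0.85 for MAG (adjusted p = 0.0026) and 0.47 for FA2H (adjusted p = 0.00916). That ratio was widest apart within pair 4 and within 1-year pair 8 (1.54 in Sub and 2.69 in EC), where MBP differed by -1.24 and 4.45. The fit also shared its spread over the 16 pairs, which without the covariate called 15 of the 23 genes higher. Its calls therefore cannot be credited to the covariate alone.

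**Figure D3:**
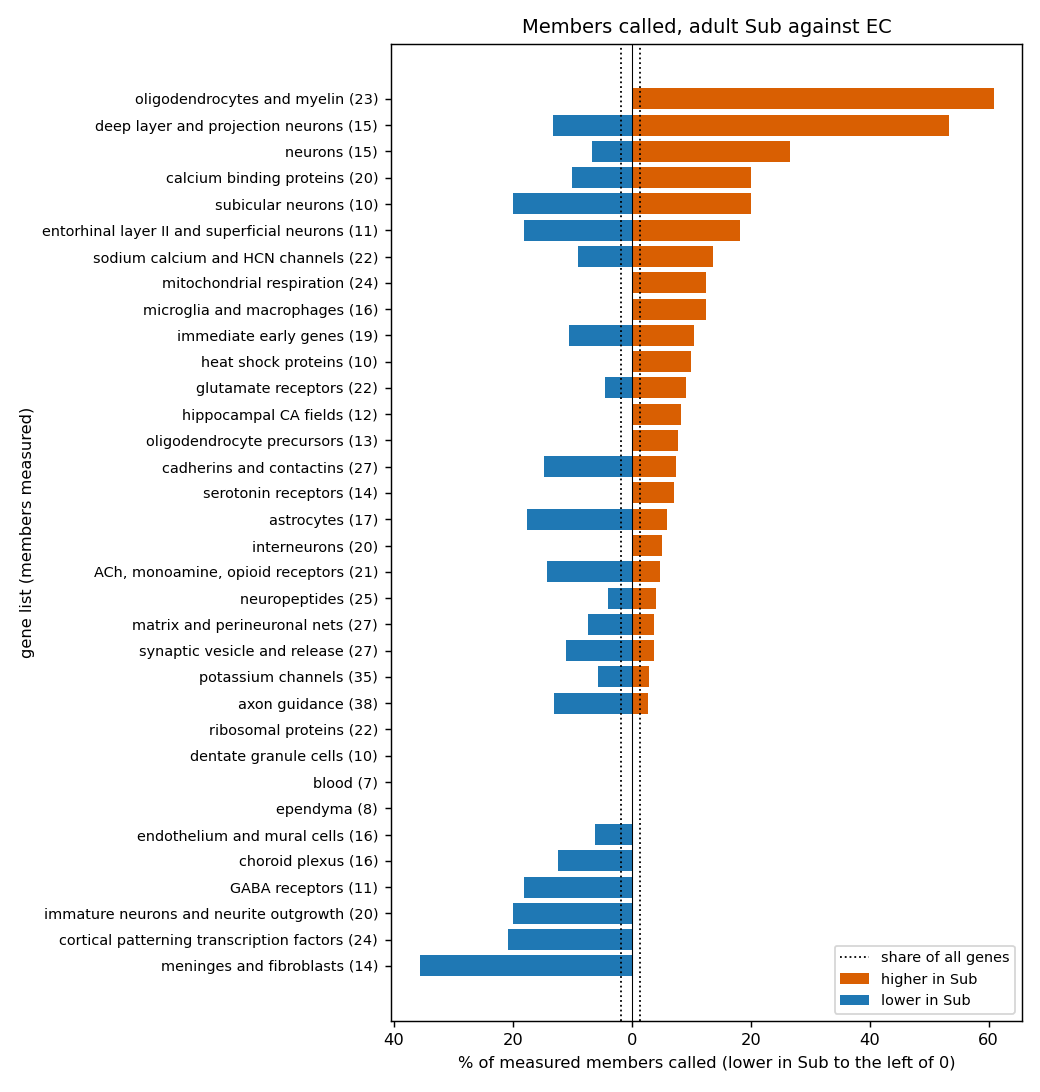
Share of the measured members of 34 gene lists that were called higher (right of 0) or lower (left of 0) in adult Sub, in percent, with the number of measured members after each name. Dotted lines mark the shares over all 19775 genes, 1.3% and 1.86%, and the longest bars are myelin on the right, with 14 of 23, and meninges on the left, with 5 of 14.

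Genes of deep layer and subcortically projecting neurons were mostly higher in Sub, though not all. Of 15 measured, 8 were higher and 2 lower, with a median difference of 0.71. The counts of higher genes were 5, 3, 5 and 8 without pairs 1, 2, 3 and 4, and those of lower genes 0, 0, 1 and 2. Beside FEZF2 and TSHZ2, NR4A2, a nuclear receptor of deep layer neurons, was at 10.23, 10.11, 10.29 and 10.23 in Sub and at 9.19, 8.36, 8.86 and 7.97 in EC. Its difference of 1.62 (adjusted p = 0.0017) came with far more spread in EC than in Sub. PCP4, a calmodulin-binding peptide, differed by 1.21 (adjusted p = 0.0141), TLE4, a corepressor, by 0.91, BCL11B, the factor CTIP2, by 0.78, ETV1 by 0.78 and CRYM, a thyroid hormone-binding protein, by 0.71. CCN2, a secreted protein of the deepest cortical neurons, was lower in Sub by -1.08 (adjusted p = 0.0118) and SOX5, a factor of early deep layer neurons, by -0.82 (adjusted p = 0.0131). TBR1 (-0.01) and FOXP2 (0.09), both factors of layer VI neurons, were not called.

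Markers of superficial entorhinal neurons split. Of 11 measured, CUX2 and CALB1 were lower in Sub and CDH8 and LMO3 were higher, and the median difference was -0.02. Without pairs 1, 2, 3 and 4, 2 were lower each time and 0, 0, 1 and 2 were higher. CALB1, the calcium-binding protein calbindin, was at 7.90, 7.63, 6.59 and 7.11 in Sub and at 8.55, 8.62, 8.95 and 8.84 in EC, a difference of -1.43 (SE 0.235, adjusted p = 0.0131). RELN, the secreted glycoprotein of layer II stellate cells, was at 9.64, 9.82, 9.72 and 10.89 in Sub and at 9.60, 9.31, 9.45 and 9.75 in EC. The groups overlapped, and the difference of 0.49 was not called (adjusted p = 0.169, and 0.27 with adjusted p = 0.296 without pair 4). WFS1, another layer II marker, differed by 0.04 (adjusted p = 0.919).

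Markers of subicular neurons, known mainly from rodents, split as well. Of 10 measured, HTR2C and NTS were higher and SLC17A6 and ROBO1 lower in Sub, in the fit with all pairs and without each pair in turn. ROBO1, a receptor for the guidance protein Slit, was at 5.90 to 6.11 in Sub and 6.71 to 6.92 in EC, a difference of -0.84 (adjusted p = 0.00284). FN1, the fibronectin gene that marks subicular pyramidal cells in mice, was at 7.97, 7.99, 8.52 and 9.22 in Sub and at 8.22 to 8.69 in EC, and was not called (-0.08, adjusted p = 0.855). TPBG (-0.14) was not called either. The median of the list was -0.08, and 4 of the 10 differences were above 0, so these markers as a list did not set the labelled subiculum apart from EC.

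Patterning factors of the cortex were called in 1 direction. Of 24 measured, 5 were lower and 0 higher in Sub (7 and 3 at an unadjusted p under 0.05 in limma), and the median was -0.04. The counts of lower genes were 2, 3, 4 and 7 without pairs 1, 2, 3 and 4. MEIS2, a homeobox factor, was at 8.08, 8.52, 8.03 and 8.11 in Sub and at 9.55, 9.71, 9.54 and 9.63 in EC, a difference of -1.42 (SE 0.107, adjusted p = 0.000389). The zinc finger factors ZIC2 (-1.08, adjusted p = 0.00663) and ZIC1 (-0.67, adjusted p = 0.0498) and the nuclear receptor NR2F1 (-0.67, adjusted p = 0.0111) were lower beside MEF2C. Of 20 genes of immature neurons and neurite outgrowth 4 were lower and 0 higher in Sub (8 and 2 at an unadjusted p under 0.05). Among them were SOX11 (-0.82, adjusted p = 0.00846) and SOX4 (-0.63, adjusted p = 0.032), factors of young neurons, and GAP43 (-0.65, adjusted p = 0.0347), a growth cone protein. Without pairs 1, 2, 3 and 4 the lower counts of this list were 1, 1, 2 and 5.

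The neuronal list mean was 11.05 to 11.33 in Sub and 10.89 to 11.01 in EC. Of its 15 genes 4 were higher (NEFH, NEFL, NEFM and THY1) and 1 lower (GAP43), and the higher count was 1 without pair 1, 2 or 3 and 4 without pair 4. NEFL and NEFM, the light and medium neurofilament chains, differed by 0.75 (adjusted p = 0.0147) and 1.02 (adjusted p = 0.0263). For NEFM Sub array 4, at 10.33, lay near EC (9.93 to 10.17), and the difference was 1.30 without pair 4. Among 20 interneuron genes PVALB was the only one called, and 0 were lower (3 higher and 2 lower at an unadjusted p under 0.05). Without pair 1, 2 were lower, and without pair 2, 3 or 4, 0 were lower, with 1 higher each time. GAD1, which makes GABA, was at 10.62 to 10.75 in Sub and 10.59 to 10.93 in EC, and differed by -0.02 (adjusted p = 0.958). SST, the somatostatin gene, differed by -0.64 (adjusted p = 0.1), and VIP by 0.00.

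Receptors differed gene by gene. GABRA2, a subunit of the GABA-A receptor, was at 7.65, 8.29, 8.51 and 7.46 in Sub and at 9.09 to 9.38 in EC, a difference of -1.28 (SE 0.171, adjusted p = 0.00515), and the call was lost without pair 1 (adjusted p = 0.052). Of 11 GABA receptor genes 2 were lower and 0 higher (4 and 1 at an unadjusted p under 0.05), the other being GABRG1 (-0.67), and 0, 1, 1 and 3 were lower without pairs 1, 2, 3 and 4. Of 22 glutamate receptor genes GRM3 (0.85) and GRIK1 (0.67) were higher and GRM7 (-0.50) was lower. ADRA1A, an alpha-1 adrenergic receptor, was at 7.25 to 8.003 in Sub and 5.99 to 6.87 in EC and differed by 1.18 (SE 0.111, adjusted p = 0.000891). It was the only higher one of 21 receptors for acetylcholine, dopamine, noradrenaline and opioids, while OPRK1 (-0.86), the kappa opioid receptor, CHRM3 (-0.97), a muscarinic receptor, and ADRA2A (-0.69) were lower. These 3 calls and those of the glutamate receptors were lost without at least 1 pair (adjusted p up to 0.17 for ADRA2A, without pair 1). PENK, the enkephalin precursor, was at 5.73 to 6.34 in Sub and 6.64 to 7.51 in EC, a difference of -1.26 (adjusted p = 0.00349), and with NTS it was called among 25 neuropeptide genes. At an unadjusted p under 0.05 in limma 3 of the 25 were higher and 9 lower. Without pairs 1, 2, 3 and 4 the lower counts were 3, 1, 2 and 1, and 1 was higher each time.

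Channel genes were called in small numbers in both directions. Of 22 sodium, calcium and HCN channel genes 3 were higher (CACNA2D2, CACNA2D3 and SCN1A) and 2 lower, SCN3A (-1.20, adjusted p = 0.0196) and CACNA1E (-0.89, adjusted p = 0.0129). Sub array 4 was the lowest of its group for SCN1A (5.76 against 6.37 to 7.18) and SCN3A (6.45 against 7.35 to 8.36), and without pair 4 these differed by 1.12 and -0.92. Of 35 potassium channel genes KCNA1 (0.84) was higher and KCNC1 (-0.69) and KCNA3 (-0.64) were lower. Each of these 8 channel calls was lost without at least 1 of pairs 1 to 3, and that of CACNA2D3 also without pair 4 (adjusted p = 0.0603). Of 27 genes of synaptic vesicles and release SLC17A6, SYN2 (-0.69), a synapsin, and SYT17 (-1.12) were lower and SYT2 (0.62), the fast calcium sensor of release, was higher. Without pair 4, 5 of that list were higher.

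Genes of wiring and adhesion were called in both directions. Of 38 axon guidance genes 5 were lower and 1 higher, and without pairs 1, 2, 3 and 4 the counts of lower genes were 2, 2, 3 and 6. Beside PLXNC1 and ROBO1 the lower genes were EFNB2 (-0.71), SEMA3A (-0.61) and SLIT1 (-0.57), and SEMA4D (0.85, adjusted p = 0.0162), a semaphorin also made by oligodendrocytes, was higher. Of 27 cadherins and contactins 4 were lower and 2 higher, and 2 were lower and 0, 0 and 1 higher without pairs 1, 2 and 3. PCDH8, an activity-regulated protocadherin, was at 8.70, 8.79, 7.40 and 8.08 in Sub and at 9.57 to 9.69 in EC, a difference of -1.38 (SE 0.198, adjusted p = 0.00748). CNTNAP2, a cell adhesion molecule of the axon beside the node, differed by -0.81 (adjusted p = 0.0118), and CNTN4, a contactin, by 0.75 (adjusted p = 0.0164).

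Of 20 calcium-binding protein genes 4 were higher and 2 lower, the lower ones being CALB1 and HPCAL1. The higher counts were 3, 1, 2 and 5 without pairs 1, 2, 3 and 4. NCALD, neurocalcin delta, was at 8.97 to 9.40 in Sub and 8.06 to 8.59 in EC, a difference of 0.92 (adjusted p = 0.00682). Its call was lost without pair 2 (adjusted p = 0.056). Immediate early genes split: of 19, NR4A2 and NR4A3 (0.85) were higher and JUN and BDNF lower. JUN, a subunit of the AP-1 factor, was at 7.13, 7.48, 7.74 and 7.40 in Sub and at 8.70, 8.76, 8.53 and 8.66 in EC, a difference of -1.23 (SE 0.133, adjusted p = 0.00172). BDNF, the neurotrophin, was at 6.76 to 7.42 in Sub and 8.07 to 8.52 in EC, a difference of -1.17 (adjusted p = 0.00323). Of 24 genes of mitochondrial respiration 3 were higher and 0 lower (6 and 0 at an unadjusted p under 0.05), namely COX5A (0.79, adjusted p = 0.0428) and COX5B (0.48, adjusted p = 0.043), subunits of cytochrome c oxidase, and ATP5F1B, a subunit of ATP synthase (0.57, adjusted p = 0.0193). Without pairs 1, 2 and 3 none of the 24 was called in limma.

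Markers of other cell types moved with the regions too. Of 14 markers of meninges and fibroblasts 5 were lower and 0 higher in Sub (9 and 0 at an unadjusted p under 0.05), and 7 were lower without pair 4. Without pairs 1, 2 and 3 the counts were 1, 2 and 4. The mean over this list was 6.18 to 6.37 in Sub and 6.65 to 7.02 in EC. COL3A1, a fibrillar collagen, was at 5.03, 4.84, 5.27 and 4.76 in Sub and at 6.25, 5.67, 7.35 and 5.67 in EC, a difference of -1.26 (adjusted p = 0.00833). OGN (-1.22, adjusted p = 0.00319) and DCN (-1.12, adjusted p = 0.0202), small proteoglycans of connective tissue, went the same way, whereas COL1A1 (0.03) and LUM, near the bottom of the range at 3.99 to 4.46, were not called. SLC13A4, a sulfate transporter of the brain's coverings and the choroid plexus, differed by -1.12 (adjusted p = 0.00319). With KCNJ13 (-0.49, adjusted p = 0.0491), a potassium channel, it made 2 lower and 0 higher of 16 choroid plexus markers (2 each way at an unadjusted p under 0.05 in limma), and 1 was lower without pair 1, 2 or 3. Whether such tissue has a part in other genes higher in EC was not tested.

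Of 17 astrocyte genes 3 were lower, ALDH1L1 (-0.93), AQP4 (-0.71) and SLC4A4 (-0.52), and S100B, which oligodendrocytes also make, was higher (0.84, adjusted p = 0.0082). Without pairs 1, 2, 3 and 4 the lower counts were 0, 1, 2 and 4. The astrocyte list mean was 9.002 to 9.47 in Sub and 9.38 to 9.496 in EC. SLC4A4 reversed to 0.01 (adjusted p = 0.959) at the mean over its probe sets. Of 16 microglia and macrophage genes SPP1 and LAPTM5 (0.61, adjusted p = 0.0142) were higher, 1 of them without pair 1, 2 or 3, and the list mean was 6.63 to 6.85 in Sub and 6.50 to 6.64 in EC. Among markers of endothelium and mural cells only ACTA2, the smooth muscle actin, was called (-0.74, adjusted p = 0.0075), and it was lost without pair 1 or 2 (adjusted p = 0.068 and 0.067). None of the measured markers of ependyma (8), blood (7) or dentate granule cells (10) nor of 22 ribosomal protein genes was called in limma, and at an unadjusted p under 0.05 the counts were 0, 0, 3 and 5.

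The levels of the 28 genes in the other adult regions set the pair in context. All 14 genes of the Sub group had their highest mean of the 5 adult regions in Sub, and 13 of the 14 of the EC group had theirs in EC. The rule that chose these genes used the Sub and EC arrays, so only the place of the other regions is new here. HTR2C was lowest in the dentate gyrus, at 4.93, and at 7.61 in CA1 and 6.62 in CA3. HAPLN4 was at 8.58 in CA1 and 8.84 in CA3, much nearer Sub than EC, while NDST4 was at 5.28 to 6.58 in the dentate gyrus, CA1 and CA3 and thus below Sub. CUX2 was at 5.99 to 6.05 in the 3 other regions, close to its Sub mean of 5.99. KCTD4 was the exception of the EC group, with its highest mean in the dentate gyrus (10.34 against 10.13 in EC). Adult CA1 and CA3 had high GAPDH ratios (means of 2.75 and 2.74), and the part of RNA quality in their levels was not tested.

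The 12 younger pairs came from other animals and took no part in the adult test. EC array 8, of a 1-year animal, had a GAPDH ratio of 2.69, against 1.24 to 1.50 in the other 1-year EC arrays. The 1-year results below include pair 8 unless stated. Of the 624 genes called in adults, 469 (75.2%) had the adult sign in the means of newborn, 6-month and 1-year animals, against 29.3% of all genes, and 182 (29.2%) had it in all 12 younger pairs, against 2.78% of all genes. Without pair 8, the number with the adult sign in all 3 younger means was 479. With all pairs, the adult sign in all 3 younger means was held by 206 of the 257 higher genes (80.2%) and 263 of the 367 lower genes (71.7%), and in all 12 younger pairs by 98 (38.1%) and 84 (22.9%). The same limma test run on the 4 pairs of each younger age called 6.94% of all genes in newborns (3.82% higher, 3.12% lower), 11.3% at 6 months (6.3% and 5.01%) and 9.02% at 1 year (4.73% and 4.29%). Of the 257 genes higher in adult Sub, 139 (54.1%) were also called higher in newborns, 174 (67.7%) at 6 months and 126 (49.0%) at 1 year. Of the 367 lower genes, 148 (40.3%) were also called lower in newborns, 235 (64.0%) at 6 months and 205 (55.9%) at 1 year. Of the 28 genes with the largest differences, 11 of each group of 14 had the adult sign in all 12 younger pairs. HAPLN4 differed by 2.43 in newborns, 2.94 at 6 months and 3.41 at 1 year, and PVALB by 1.30, 1.43 and 1.59. In pair 8 HAPLN4 differed by 4.12, against 2.58 to 3.97 in the other 1-year pairs. Among genes higher in EC, MEIS2 was at -1.01, -1.41 and -1.39 and PLXNC1 at -1.18, -1.71 and -2.02. The median of the myelin list was 0.55 in newborns, 1.36 at 6 months, 1.20 at 1 year and 0.85 in adults (0.99 without pair 4).

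**Figure D4:**
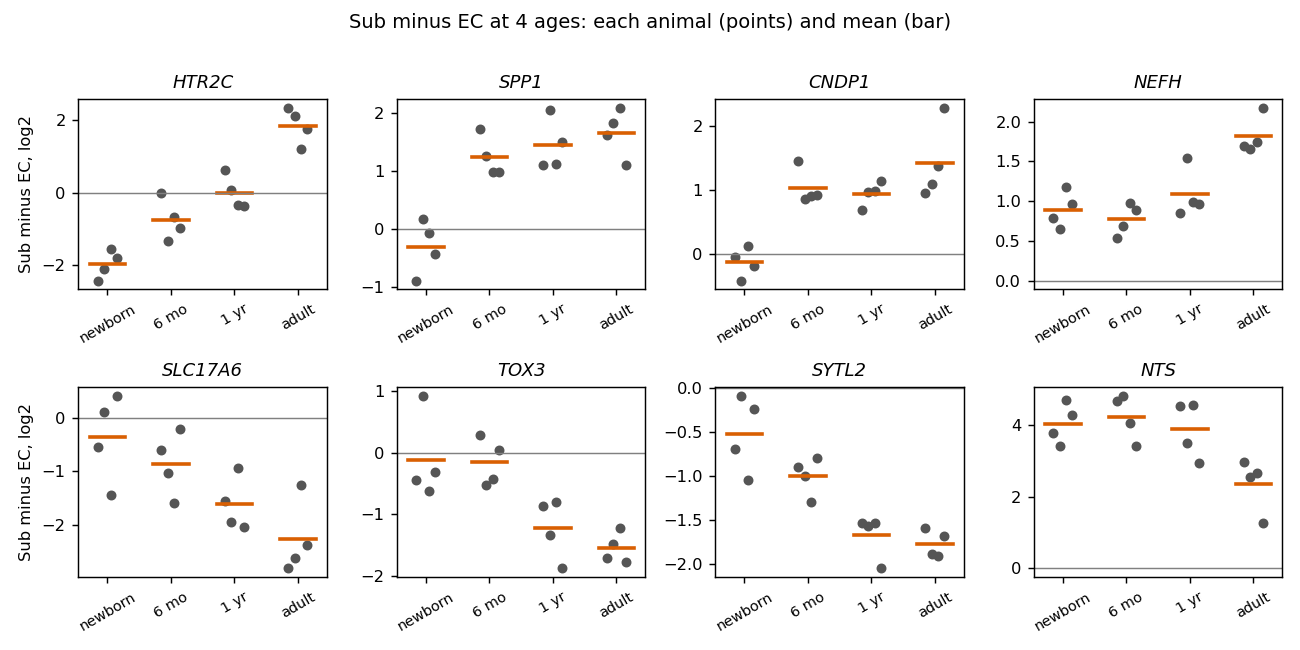
Sub minus EC difference in log2 signal (y axis) at 4 ages (x axis) for 8 genes. Points are single animals, 4 per age, and the bar is their mean. HTR2C moves from below 0 in all 4 newborns to above 0 in all 4 adults, SLC17A6, TOX3 and SYTL2 move downward, and NTS stays above 0 in all 16 animals.

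For some genes the difference between the regions itself differed between adults and newborns. A limma fit of the 16 differences, adult minus newborn, called 211 genes (1.07%), 61 higher (0.308%) and 150 lower (0.759%). The count ranged from 27 without newborn pair 14 to 334 without newborn pair 15, and was 46, 105 and 28 without pairs 1, 4 and 16. With values as deposited 14.4% of calls were higher, against 28.9% here and 12% centred on the median. HTR2C reversed between the regions. In newborns it was at 4.85, 5.07, 5.67 and 5.00 in Sub and at 7.27, 7.17, 7.22 and 6.81 in EC, so that all 4 newborns had less in Sub. The difference between the regions was -1.97 in newborns, -0.75 at 6 months, -0.01 at 1 year and 1.84 in adults, and it changed by 3.81 from newborn to adult (SE 0.279, adjusted p = 2.87e-07). Across single-pair removals its adjusted p was at most 5.57e-06.

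SPP1 and CNDP1 had about equal levels in newborns and more in Sub later. SPP1 differed by -0.30 in newborns and 1.66 in adults, a change of 1.96 (SE 0.250, adjusted p = 0.000643). CNDP1, a dipeptidase made by oligodendrocytes, differed by -0.13 in newborns and by 1.04, 0.94 and 1.43 at the later ages, a change of 1.56 (SE 0.220, adjusted p = 0.0024). Both kept the call without any single pair. SYTL2 went the other way, from -0.51 to -1.76, a change of -1.25 (adjusted p = 0.00378), as EC rose from 7.38 to 8.72 and Sub stayed at 6.87 and 6.95. SLC17A6 was at 8.01 in newborn Sub and 8.37 in newborn EC, and at 6.41 and 8.67 in adults, a change in the difference of -1.90 (SE 0.378, adjusted p = 0.0194). That call was lost in at least 1 single-pair removal (adjusted p up to 0.102).

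ATOH7, a basic helix-loop-helix factor, differed by 2.45 in newborns, with 8.47, 8.56, 7.43 and 8.11 in Sub and 5.57 to 5.76 in EC, and by 0.12 in adults, a change of -2.33 (SE 0.288, adjusted p = 0.000539). Its 1 other probe set had the opposite sign in adults. PTGDS, which makes prostaglandin D2 in meninges and glia, was lower in Sub by -3.20 in newborns and by -1.25 in adults, a change of 1.95 (adjusted p = 0.0136). COL1A2 of the meninges list changed in the same direction, by 1.66 (adjusted p = 0.0202), from -2.68 in newborns, and its part in the PTGDS change was not tested. NTS was higher in Sub in all 16 animals, but by 4.03 in newborns and 2.36 in adults (change -1.67, SE 0.391, adjusted p = 0.041). Without pair 4 the change was -1.31 (adjusted p = 0.116). EFNA5, the guidance ligand ephrin-A5, went from 0.99 to -0.68 (change -1.66, adjusted p = 0.0227) and GXYLT2, a xylosyltransferase, from 1.08 to -0.77 (change -1.85, adjusted p = 0.0163). AP3D1, a subunit of the AP-3 vesicle coat, went from -1.58 to -0.01 (change 1.57, adjusted p = 0.0136). PTGDS, AP3D1, GXYLT2 and EFNA5 lost the call without pair 1 (adjusted p = 0.0558, 0.0556, 0.0547 and 0.0894), among other pairs.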

How the data were processed

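Per the labels, RNA was extracted with Trizol from microdissected tissue, amplified and biotin-labelled from the 3' end in 2 rounds, and hybridised to a human expression array, 1 array per animal and region. The authors deposited log2 values for 54675 probe sets (3.42 to 14.51); how they were summarised and scaled is not stated in the labels or headers. Of these, 62 were controls, 41091 carried 1 gene symbol, 1801 several and 11721 none, and only those with 1 symbol were used.

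Array quartiles varied (spread 0.120, 0.106 and 0.120), above a limit of 0.05, so the deposited values were quantile normalized over the 80 arrays. The within-number differences of 4 adult pairs were tested against 0, and the 16 differences of all ages for adult minus newborn, with lmFit and eBayes of limma 3.58.1 in R 4.3.3, with Benjamini-Hochberg adjustment over 19775 genes at 0.05. Figures used matplotlib 3.10.9 in Python 3.11.15. That title numbers mark animals was inferred from the design text, by which each monkey gave all 5 regions, and from a correlation check. Deviations of same-numbered Sub and EC arrays from their group means correlated at 0.111 to 0.183, and those of other numbers at -0.05 on average. Such deviations sum to 0 in each group, so the second value is tied to the first and is not separate support. Whether shared processing has a part in the same-number values was not tested. The 8 arrays correlated at 0.956 to 0.991, and none were identical. The number of arrays limits the precision.

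Named genes were the 14 largest called differences each way. They had the same sign in 4 pairs and the higher group mean above the median gene. Members of 34 gene lists and the 4 largest called changes each way for adult minus newborn were added. Those changes were taken among genes whose adult and newborn differences did not overlap and with a group mean above the median gene. The genes and lists were chosen with earlier results of these data known. Simulated data held 19775 genes, 200 of them changed. The 4-pair test recovered 48% of changes of 0.5 log2 and 99.5% of changes of 1 log2, with 13 and 9 false calls. With 3 pairs 3.5% and 99.5% were recovered, and for adult minus newborn 2% and 96.5%. The simulated noise was normal and independent between genes and pairs. In every setting, also that of 3 pairs, each gene's spread came from the limma fit of the 4 adult pairs, pair 4 included. The simulated data held no degraded array and no shift of a whole array. These shares may therefore not hold for the real pairs, with or without pair 4. Alternatives were other scalings, the mean of a gene's probe sets, a filter on dim genes, no pairing, a spread shared over 16 pairs, the GAPDH ratio as covariate, and removal of each pair.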

Additional observations from a re-analysis of the deposited data

Results flagged for a closer look

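In 10 of 192 groups of 4 arrays a gene had 1 array far from the rest, by its gap to the nearest array as a share of the group's range; chance gives about 1 in 20 groups. In Sub these were MALAT1 in array 3 (share 0.905; 8.77 against 10.37 to 10.54), NTS in array 4 (0.879), TOX in array 1 (0.855), ENPP2 in array 4 (0.973) and MEIS2 in array 2 (0.832; 8.52 against 8.03 to 8.11). In EC they were PVALB in array 3 (0.860), SYTL2 in array 1 (0.844; 8.18 against 8.82 to 8.94), SCN1A in array 2 (0.908), SEMA4D in array 1 (0.867; 6.23 against 6.62 to 6.68) and NEFL in array 3. For NEFL the share was 1, but the 4 values spanned only 10.64 to 10.65. The GAPDH ratio of Sub array 4 stood apart in the same way (0.943).

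Also flagged were the 4 largest called changes each way of the Sub minus EC difference between newborns and adults in the limma contrast. They were taken among genes whose adult and newborn differences did not overlap. Other genes named above, among them CNDP1, SYTL2, SLC17A6 and COL1A2, were called in this contrast too. The change was 3.81 for HTR2C, 1.96 for SPP1, 1.95 for PTGDS and 1.57 for AP3D1, and -2.33 for ATOH7, -1.85 for GXYLT2, -1.67 for NTS and -1.66 for EFNA5.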

How the results depend on the processing

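Removal of single pairs gave 149 to 813 adult genes called (54 to 336 higher, 91 to 477 lower), and 41 to 123 list members against 104. With no replicate block by animal 491 genes were called. At the mean of all probe sets of a gene 336 were called (125 higher, 211 lower), with 59 list members, and SLC4A4 reversed to 0.0125. A spread shared over 16 pairs gave 1431 (736 and 695), and with the GAPDH ratio added as covariate 1667 (817 and 850). Leaving out pairs 4 and 8, which held the Sub and EC arrays with the highest GAPDH ratios, gave 1261 (599 and 662) in the shared-spread fit without the covariate. Leaving out pair 4 alone in the fit without the covariate, an alternative chosen after seeing the data, gave 773. Values as deposited gave 157 higher and centred values 137. For adult minus newborn, pair removal gave 27 to 334 (11 to 83 higher, 15 to 254 lower), no replicate block 112 (32 and 80), probe-set means 107 (34 and 73), the covariate 408 (117 and 291) and no pairs 4 and 8 374 (129 and 245), while values as deposited gave 298 (43 and 255) and centred values 300 (36 and 264). The cause of these shifts was not tested. Single genes were followed for 96 called genes picked by the naming rule, which took at most 4 called members of a list. Of these 96, 48, 47, 31 and 1 lost the call without pairs 1, 2, 3 and 4, 36 at probe-set means and 14 with no block. Called list members outside the 96, such as FA2H, could also lose the call without pair 4. Without the block NTS and EFNA5 also lost the adult minus newborn call (adjusted p = 0.104 and 0.0693).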
